A study of Homo sapiens with 10 samples.

Results

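The D-type cyclins (CCND1, CCND2, CCND3), their kinases CDK4 and CDK6, the CDK inhibitors CDKN1A, CDKN1B, CDKN1C and CDKN2C, and the retinoblastoma gene RB1 were followed in PANC-1 cells, an established human pancreatic carcinoma line. The 10 genes were taken by symbol, and all 10 were found among the 20263 genes of the deposited table. Cells received 20 µM LY, which is lycorine per the series title, or DMSO, the vehicle group, for 24 h, with 5 libraries each. The study design gives LY against DMSO as the comparison. Control libraries are named NC-1 to NC-5 in the table and are called so here. Lycorine is a plant alkaloid known to inhibit protein synthesis on ribosomes. PANC-1 is 1 cell line, known to have lost the CDKN2A locus, which limits it as a model of the INK4 arm of this pathway.

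D cyclins bind CDK4 or CDK6 when growth signals are present, and the complex phosphorylates RB1. Unphosphorylated RB1 holds E2F transcription factors inactive, so its phosphorylation lets cells pass from G1 into S phase. INK4 proteins such as CDKN2C (p18) bind CDK4 and CDK6 directly and keep D cyclins off them. CIP/KIP proteins (CDKN1A or p21, CDKN1B or p27, CDKN1C or p57) bind cyclin-CDK complexes and block mainly CDK2. In pancreatic carcinoma this checkpoint is known to be weakened by loss of CDKN2A. Several of these proteins are also controlled by degradation, which RNA levels do not show.

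All values are TPM, transcript abundances scaled to transcript length and library total, so levels can be set beside each other between genes. Fold changes are LY over DMSO from a limma fit to log2(TPM + 1) with its SE, and a gene counted as changed at an adjusted p below 0.05. The depth of the libraries is unknown. In this fit 64.6% of 11663 tested genes changed, 39.8% up and 24.9% down, 22.1% were changed at least 2-fold, and the values of the groups did not overlap in 49.4%. By upper-quartile scaling the split was 3346 up and 4371 down, against 4639 and 2899 as deposited, and the median over the tested genes moved from 0.17 to -0.080 on the log2 scale. Control library NC-2 stood apart, with 37.5% of its TPM from mitochondrially encoded genes against 12.2% to 14.1% in the other controls and 6.43% to 14.9% in LY. Among markers of the labelled cell type the keratins KRT8 and KRT18 were abundant (664 to 1601 TPM over all libraries), whereas KRT7 and EPCAM stayed at or under 1.76 TPM. KRT19, another ductal keratin, was at 21.0 ± 3.47 TPM in LY and 148 ± 16.6 in DMSO. Of 18 markers of acinar, endocrine, blood, endothelial and fibroblast cells 10 were at 0 in every library, among them PRSS1, INS, CD3E, PECAM1 and DCN. The 4 that reached 1 TPM were CD68 (179 ± 43.5 TPM in LY, 39.8 ± 5.01 in DMSO), CDH5 (3.01 ± 0.218 and 0.368 ± 0.166), COL1A1 (0.455 ± 0.158 and 2.85 ± 0.546) and COL1A2 (32.3 ± 3.76 and 96.0 ± 17.7), and their part in the results was not tested. The labels do not tell separate cultures from repeat libraries, and p-values therefore cover only the spread among these libraries, which may be technical. In bulk RNA, fewer cells expressing a gene and less RNA per cell cannot be told apart.

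Of the 9 members that passed the filter on low values, 3 rose (RB1, CDKN1A and CDK6), 3 fell (CDKN2C, CCND1 and CDKN1C) and 3 did not pass the test (CCND3, CDK4 and CDKN1B), against 64.6% of all tested genes called. CCND2 stayed under 1 TPM in every library and was not tested. Lycorine-treated cells thus had 2.63-fold more RB1, 2.39-fold more CDKN1A and 2.32-fold more CDK6 RNA by group means, 4.29-fold less CDKN2C and 2.09-fold less CCND1. CDK6 passed the filter through all 5 LY libraries and 1 control, and CDKN1C through 4 controls and 1 LY library, so these low genes entered the test mainly through the group in which they were higher.

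**Figure D1:**
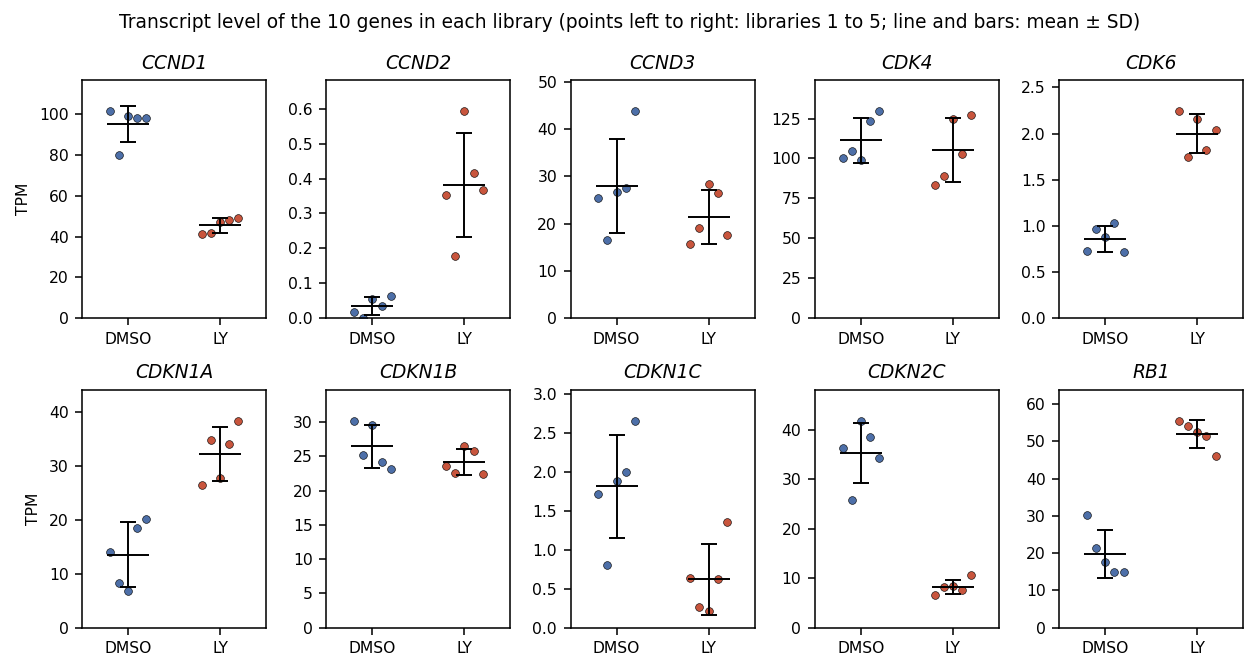
TPM of each of the 10 genes in the 5 DMSO (blue) and 5 LY (red) libraries; points are single libraries in column order, and the line with bars is the mean ± SD of a group. CCND1 and CDKN2C in LY lie below every control, RB1, CDKN1A, CDK6 and CCND2 lie above, and CCND3, CDK4, CDKN1B and CDKN1C overlap.

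The stretches before the transcript starts of the changed members CDKN2C, CDKN1A and CDK6 are shown because they hold motif matches. The entry for RB1, also changed, lies before a start at position 48476450, inside the gene, and held no match, so it is not printed. The deposited value of a gene cannot be assigned to a start. RefSeq (GRCh38.p14) lists such stretches for 7 of the 10 members, and CCND1, CCND2 and CDKN1C had none to search. Of each 250-base window only the run that holds no exon annotated in GENCODE 29 is printed, 5′ to 3′ on the strand of the gene. Capitals mark matches on either strand to GGGCGG (the box bound by SP1-type factors), CACGTG (the E-box bound by MYC and MAX) or TGACGT (the core of the site bound by CREB and ATF factors).
CDKN2C upstream start (chr1:50960495-50960744, plus strand): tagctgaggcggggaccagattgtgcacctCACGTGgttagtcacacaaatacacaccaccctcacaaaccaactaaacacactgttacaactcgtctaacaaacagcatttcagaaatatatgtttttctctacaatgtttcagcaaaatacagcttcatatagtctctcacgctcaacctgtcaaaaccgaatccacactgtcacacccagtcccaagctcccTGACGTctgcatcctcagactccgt
CDKN1A (chr6:36678464-36678657, plus strand): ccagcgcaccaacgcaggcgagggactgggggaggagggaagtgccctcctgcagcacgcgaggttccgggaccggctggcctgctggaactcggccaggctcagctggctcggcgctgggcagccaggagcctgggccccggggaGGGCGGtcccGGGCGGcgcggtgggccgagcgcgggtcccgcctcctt
CDK6 upstream start (chr7:92836595-92836823, minus strand): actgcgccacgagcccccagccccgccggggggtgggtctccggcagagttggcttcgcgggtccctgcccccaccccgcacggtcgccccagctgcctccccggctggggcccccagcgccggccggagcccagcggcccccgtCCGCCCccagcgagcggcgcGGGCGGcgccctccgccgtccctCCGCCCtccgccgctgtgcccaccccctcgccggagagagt
CDK6 downstream start (chr7:92833960-92834209, minus strand): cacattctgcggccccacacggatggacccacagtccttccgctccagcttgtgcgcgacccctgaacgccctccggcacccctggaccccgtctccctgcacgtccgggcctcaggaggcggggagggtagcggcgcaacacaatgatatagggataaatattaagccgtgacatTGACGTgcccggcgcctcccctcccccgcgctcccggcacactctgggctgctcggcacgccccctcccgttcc
CDKN1A held 4 GGGCGG boxes in its full window, beginning 104, 94, 45 and 40 bases before the start, of which the last 2 overlap each other and lie outside the printed run. The upstream start of CDKN2C held no GGGCGG box, but 1 CACGTG and 1 TGACGT match, whereas its start at position 50968706 held 5 GGGCGG boxes, some overlapping, and its start at 50970245 held 1 match to each of the 3 motifs. The upstream start of CDK6 held 3 GGGCGG boxes and its other start 1 TGACGT match. Members that did not pass the test held matches too, with 6 in CDK4, 1 in CDKN1B, and 5 and 2 at separate starts of CCND3. Matches were thus not particular to the changed members. The CDKN2C windows before 50968706 and 50970245 and the CCND3 window with 5 matches lay wholly within annotated exons (250 bases). Exons took 244 bases of the CDKN1B window and 211 of the CDK4 window. Over all 35116 RefSeq windows of the same length, GGGCGG occurred in 42.6%, TGACGT in 7.10% and CACGTG in 6.34%. No window of these 7 members held TATAAA (in 10.7% of all windows) or the AP-1 letters TGACTCA (in 4.203%). The E2F-type letters searched were TTTGGCG, its variant TTTCCCG, the variant TTTGCCG and lastly TTTCGCG, which no member window held and 7.33% of all windows did. A match describes these letters and is not a measured site.

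Among the D cyclins, CCND1 was the main transcript in both groups and fell. CCND1 (ENSG00000110092, chromosome 11, 69641087 to 69654474 on hg38) encodes cyclin D1, a classical target of growth factor and Wnt signalling. It measured 101, 79.8, 99.0, 98.1 and 98.0 TPM in NC-1 to NC-5 and 41.4, 41.8, 47.1, 48.3 and 49.2 TPM in LY-1 to LY-5. Every LY library was below every control, and the lowest control was NC-2. The log2 fold change was -1.05 ± 0.096 (adjusted p = 1.93e-06), and without NC-2 it was -1.11. CCND1 overlaps LTO1 on the opposite strand, a gene that measured 46.4 ± 11.7 TPM in LY and 21.9 ± 6.19 in DMSO. The strandedness of the counting is not known here, and reads of overlapping genes may not be told apart.

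CCND3, which encodes cyclin D3, measured 25.4, 16.6, 26.6, 27.5 and 43.8 TPM in NC-1 to NC-5. In LY-1 to LY-5 it measured 15.6, 19.1, 28.4, 26.5 and 17.6 TPM. The groups overlapped widely, with NC-5 above all other libraries. CCND3 did not pass the test as deposited (log2 fold change -0.34 ± 0.23, 95% interval -0.85 to 0.17, adjusted p = 0.215), but was called lower with median-ratio, quantile and upper-quartile scaling, with the mitochondrial genes (alone or with the 50 most abundant) removed and without NC-2 (log2 fold change -0.60 to -0.49).

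CCND2, the cyclin D2 gene, was the lowest of the members by mean in both groups, at the 28.8th percentile of all listed genes in DMSO and the 39.4th in LY. The controls measured 0.0170, 0, 0.0543, 0.0343 and 0.0630 TPM, and the LY libraries 0.353, 0.179, 0.593, 0.417 and 0.367 TPM. All LY libraries were above all controls, yet none reached 1 TPM. In the fit without a filter its log2 fold change was 0.41 (adjusted p = 3.63e-04), and the added 1 in log2(TPM + 1) compresses changes at such levels.

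Summed over the 3 D cyclins, the level was 67.4 ± 8.31 TPM in LY and 123 ± 16.5 TPM in DMSO, and no LY library reached the lowest control (57.4 to 76.1 against 96.4 to 142 TPM). CCND1 made up 61.9% to 73.3% of this sum in LY and 69.1% to 82.8% in the controls, so the shares overlapped. CCND3 took 31.4 ± 4.86% in LY and 22.2 ± 5.15% in DMSO. Shares within a gene group do not depend on a single scaling factor per library, but quantile normalization can move them.

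Of the 2 kinases, CDK4 was abundant and did not pass the test, and CDK6 was low and rose. CDK4 (ENSG00000135446, chromosome 12, 57747727 to 57756013) measured 100.02, 105, 98.9, 124 and 129.5 TPM in NC-1 to NC-5. In LY-1 to LY-5 it measured 83.3, 89.1, 125, 103 and 127 TPM. The groups overlapped across most of their range, and the log2 fold change was -0.089 ± 0.14 (95% interval -0.39 to 0.22, adjusted p = 0.59). CDK4 was called lower with quantile (-0.36) and upper-quartile scaling (-0.36), not in the other alternatives run. It overlaps TSPAN31 (6.85 ± 1.08 TPM in LY, 8.67 ± 2.54 in DMSO), which lies on the opposite strand. MARCHF9, which also overlaps CDK4 on the opposite strand, measured 2.34 ± 0.231 TPM in LY and 1.97 ± 0.524 in DMSO.

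CDK6, the other partner of the D cyclins, measured 0.724, 0.965, 0.876, 1.03 and 0.713 TPM in NC-1 to NC-5. It measured 2.24, 1.75, 2.15, 1.83 and 2.04 TPM in LY-1 to LY-5. All LY libraries were above all controls. The log2 fold change was 0.69 ± 0.097 (adjusted p = 5.75e-05), and with a pseudocount of 0.1 it was 1.13. CDK6 made up 1.57% to 2.62% of the summed kinase TPM in LY and 0.547% to 0.914% in DMSO, and CDK4 the rest. The summed kinase level was 107 ± 20.1 TPM in LY and 112 ± 14.2 TPM in DMSO.

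Of the CIP/KIP inhibitors, CDKN1A rose, CDKN1C fell and CDKN1B did not pass the test. CDKN1A (ENSG00000124762, chromosome 6, 36676460 to 36687339) encodes p21, an inhibitor induced by many kinds of stress. It measured 14.1, 8.20, 6.71, 18.5 and 20.1 TPM in NC-1 to NC-5 and 26.4, 34.8, 27.8, 34.0 and 38.4 TPM in LY-1 to LY-5. All LY libraries were above all controls, although the controls themselves spread from 6.71 to 20.1 TPM. The log2 fold change was 1.29 ± 0.26 (adjusted p = 9.96e-04), and it lay between 1.04 and 1.46 over 23 alternatives.

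CDKN1B, whose protein p27 is removed by the SKP2 ubiquitin ligase, measured 30.2, 25.2, 29.5, 24.1 and 23.2 TPM in NC-1 to NC-5. In LY-1 to LY-5 it measured 23.5, 22.6, 26.5, 25.8 and 22.4 TPM. The groups overlapped, and the log2 fold change was -0.12 ± 0.10 (95% interval -0.35 to 0.10, adjusted p = 0.323). CDKN1B was called lower in 5 of 23 alternatives, each of them with another scaling (-0.38 to -0.23).

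CDKN1C, an imprinted gene, was low. It measured 1.72, 0.804, 1.89, 1.995 and 2.66 TPM in NC-1 to NC-5 and 0.637, 0.266, 0.215, 0.622 and 1.36 TPM in LY-1 to LY-5. LY-5 lay above NC-2, and the other LY libraries lay below all controls. The log2 fold change was -0.80 ± 0.21 (adjusted p = 0.00558), and with a pseudocount of 0.1 it was -1.54.

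Within the CIP/KIP group CDKN1A took 56.3 ± 4.78% of the summed TPM in LY and 31.5 ± 11.2% in DMSO, and the libraries of the groups did not overlap (51.0% to 61.8% against 17.6% to 43.8%). CDKN1B took 36.0% to 48.6% in LY and 50.5% to 77.5% in the controls. The most abundant CIP/KIP transcript was therefore CDKN1A in every LY library and CDKN1B in every control. The CIP/KIP sum was 57.1 ± 4.63 TPM in LY against 41.8 ± 5.37 TPM in DMSO. The ratio of CIP/KIP to D cyclin TPM was 0.716 to 0.944 in LY and 0.303 to 0.362 in the controls; this ratio was chosen after the values were seen.

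CDKN2C had the largest log2 fold change of the 9 tested members and lay at the 96.8th percentile of tested genes by size of change. CDKN2C (ENSG00000123080, chromosome 1, 50960745 to 50974633) encodes p18, an INK4 inhibitor. It measured 36.4, 25.8, 41.9, 38.6 and 34.3 TPM in NC-1 to NC-5 and 6.58, 8.24, 8.38, 7.52 and 10.6 TPM in LY-1 to LY-5. Every LY library was below every control. The log2 fold change was -1.97 ± 0.15 (adjusted p = 3.58e-07), and it lay between -2.22 and -1.90 over the alternatives.

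Of the other INK4 genes only CDKN2D was tested, and it did not pass as deposited. CDKN2A and CDKN2B, neighbours on chromosome 9, were listed at 0 in all 10 libraries. CDKN2D, which encodes p19, measured 15.5 ± 4.04 TPM in LY and 17.7 ± 5.80 TPM in DMSO (log2 fold change -0.14 ± 0.25, adjusted p = 0.639). Without NC-2 its log2 fold change was -0.38 (adjusted p = 0.0587), and with median-ratio scaling as well it was called lower (-0.48, adjusted p = 0.0166). CDKN2C thus made up 25.8% to 40.2% of INK4 TPM in LY and 59.9% to 76.2% in DMSO, and the INK4 sum was 23.7 ± 4.59 TPM in LY against 53.1 ± 10.8 TPM in DMSO, without overlap. Whether the change of CDKN2C differed from that of CDKN2D was not tested.

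RB1, the substrate at the end of the pathway, rose. RB1 (ENSG00000139687, chromosome 13, 48303726 to 48599436) measured 30.2, 21.3, 17.6, 14.9 and 14.8 TPM in NC-1 to NC-5. In LY-1 to LY-5 it measured 55.5, 54.2, 52.5, 51.5 and 45.9 TPM. All LY libraries were above all controls, of which NC-1 was the highest. The log2 fold change was 1.40 ± 0.17 (adjusted p = 1.97e-05), and without NC-1 it was 1.55. LPAR6, which lies within RB1 on the opposite strand, was at or under 0.442 TPM in every library. RCBTB2, which also overlaps RB1 on the opposite strand, measured 1.53 ± 0.341 TPM in LY and 1.36 ± 0.330 in DMSO.

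Of the relatives of RB1, RBL2 (p130) fell and RBL1 (p107) did not pass the test. RBL2 went from 32.6 ± 1.73 to 13.5 ± 1.26 TPM (log2 fold change -1.22 ± 0.092, adjusted p = 3.93e-07). RBL1 measured 10.7 ± 1.76 TPM in LY and 12.2 ± 1.21 TPM in DMSO (log2 fold change -0.19 ± 0.12, adjusted p = 0.18). RB1 made up 65.5% to 70.2% of the TPM of the 3 genes in LY and 25.2% to 39.7% in the controls, where RBL2 was the most abundant with 44.2% to 55.0%. The sum of the 3 genes overlapped between groups (66.5 to 81.6 against 57.4 to 76.1 TPM). The INK4 and RB family shares were chosen after the values were seen.

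**Figure D2:**
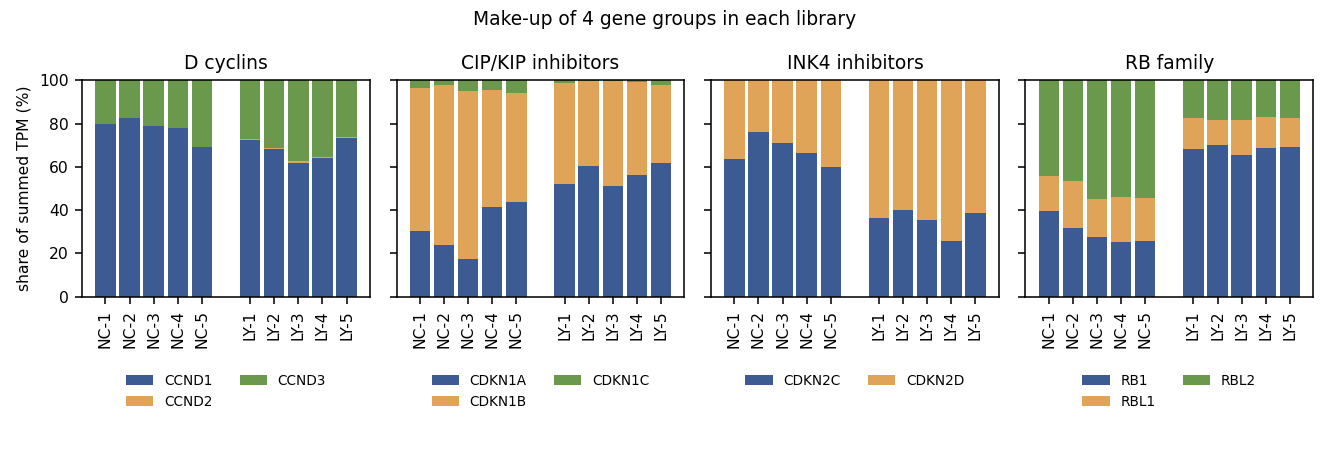
Share of each gene in the summed TPM of its group (percent) in each control (NC) and LY library, for the D cyclins, CIP/KIP inhibitors, INK4 inhibitors and RB family; each bar is 1 library. CDKN1A takes 51.0% to 61.8% of the CIP/KIP sum in LY against 17.6% to 43.8% in the controls, and RB1 takes 65.5% to 70.2% of the RB family sum in LY against 25.2% to 39.7%.

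The order of the members by level differed between groups. In DMSO the mean ran from CDK4 (111 TPM) and CCND1 (95.3 TPM) through CDKN2C (35.4), CCND3 (27.98), CDKN1B (26.4), RB1 (19.8) and CDKN1A (13.5) to CDKN1C (1.81), CDK6 (0.861) and CCND2 (0.0337 TPM). In this order the ranges of CDK4 and CCND1 overlapped, as did each pair of neighbours from CDKN2C to CDKN1A, and CDKN1C with CDK6. Within each control, however, CDKN1B was above RB1, although in NC-1 they were nearly equal (30.20 and 30.19 TPM). In LY it ran from CDK4 (105 TPM) through RB1 (51.9), CCND1 (45.6), CDKN1A (32.3), CDKN1B (24.2), CCND3 (21.4) and CDKN2C (8.25) to CDK6 (2.001), CDKN1C (0.62) and CCND2 (0.382 TPM). There the ranges of RB1 and CCND1, CDKN1A and CDKN1B, CDKN1B and CCND3, and CDKN1C and CCND2 overlapped. Within each LY library, however, CDKN1A was above CDKN1B. By mean level RB1 thus stood below CCND1, CDKN2C, CCND3 and CDKN1B in DMSO and above them in LY, and CDKN2C stood above CCND3, CDKN1B and CDKN1A in DMSO and below them in LY.

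**Figure D3:**
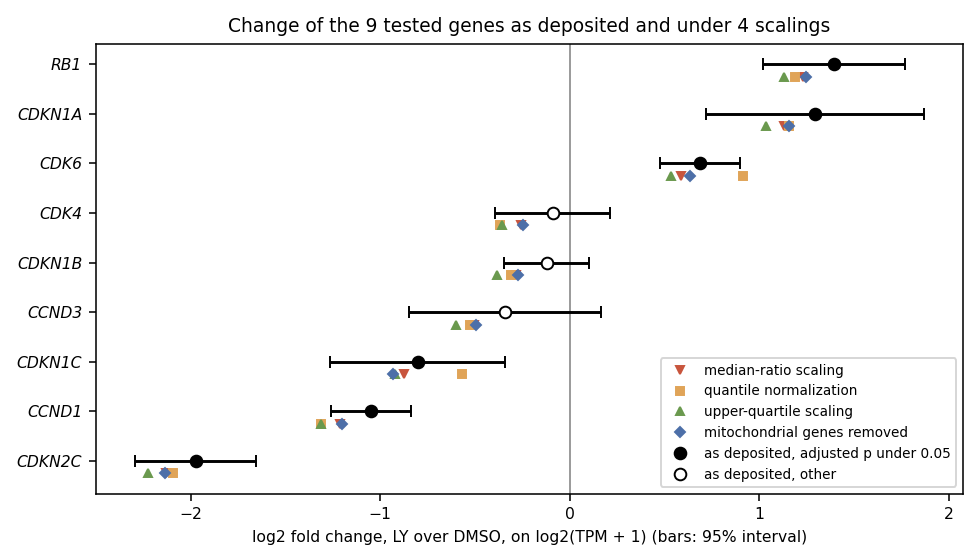
Log2 fold change of the 9 tested members, LY over DMSO, on the log2(TPM + 1) scale; circles with 95% intervals are the values as deposited (filled where the adjusted p is under 0.05), and coloured symbols are 4 other scalings. CDKN2C, CCND1 and CDKN1C stay below 0 and RB1, CDKN1A and CDK6 above 0 under each scaling shown, while the intervals of CCND3, CDKN1B and CDK4 as deposited include 0.

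The genes whose pattern over the 10 libraries was most like that of CDKN2C, by Pearson's r of log2(TPM + 1), were PTGES, HEXIM1, UBE2L6, EHMT2 and COL4A2, each with r = 0.996. The points share their libraries and the group difference, and 947 tested genes had an r above 0.95.

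Genes acting beside the members were grouped in lists. Of the cyclin E-CDK2 module, which acts after CDK4 and CDK6, CCNE1, CCNE2 and CDK2 did not pass and CDC25A, the phosphatase that activates CDK2, rose (log2 fold change 0.74 ± 0.15). Over all tested genes 39.8% rose and 24.9% fell. CDK2 was called lower in 8 and CCNE2 in 7 of 23 alternatives. With median-ratio or upper-quartile scaling 2 genes of the module fell, where 3863 and 4371 of the 11663 tested genes fell.

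Of 12 pocket protein and E2F genes 3 rose, 4 fell and 5 missed the threshold; their median was -0.061 on the log2 scale, against 0.17 over the genes tested, of which 39.8% rose and 24.9% fell. The activators of S phase genes E2F1 and E2F2 fell, from 70.0 ± 14.6 to 27.2 ± 3.98 TPM and from 9.94 ± 1.77 to 2.84 ± 0.539 TPM. E2F3, the third such activator, measured 11.5 ± 2.98 TPM in LY and 9.70 ± 1.77 TPM in DMSO and did not pass. E2F4 and E2F5, which work mainly as repressors with RBL1 and RBL2, rose (log2 fold change 0.57 ± 0.10 and 1.09 ± 0.10). Of the E2F partners, TFDP2 rose (0.92 ± 0.11) and TFDP1 fell (-0.47 ± 0.080).

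Among 23 E2F target genes of the G1/S transition, 21 fell, none rose and 2 missed the threshold, with a median of -0.85 on the log2 scale, against 24.9% of all tested genes that fell. Without a filter or by the exact Wilcoxon test 19 fell, and with quantile or upper-quartile scaling 22 fell. With these 2 scalings 3694 and 4371 of the 11663 tested genes fell. The replication genes GINS2 (-1.82 ± 0.094), PCNA (-1.51 ± 0.15) and GINS1 (-1.45 ± 0.11) had the largest decreases. RRM1 and POLA1 were the pair that did not pass, named after their values were seen.

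The MuvB core, which joins RBL1 or RBL2 in the DREAM repressor complex, had 4 of 5 members higher and 1 lower, where 39.8% of all tested genes rose and 24.9% fell. With median-ratio or upper-quartile scaling 3 rose, where 3853 and 3346 of the 11663 tested genes rose. The LIN54 call was lost in 4 of 23 alternatives. LIN37 (1.004 ± 0.14), LIN52 (0.72 ± 0.11), LIN9 (0.68 ± 0.12) and LIN54 (0.62 ± 0.16) rose. RBBP4 was called lower (adjusted p = 0.0435), a call lost in 12 of 23 alternatives, with LY-2 at 67.6 TPM and the other LY libraries at 24.5 to 26.9 TPM.

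Of 12 genes of the turnover of D cyclins and CIP/KIP proteins 9 rose, 1 fell and 2 missed the threshold, with a median of 0.39 on the log2 scale, beside 39.8% up and 24.9% down over all tested genes. With quantile or upper-quartile scaling 4 rose and 2 fell. Of the 11663 tested genes, 4055 rose and 3694 fell with quantile scaling, and 3346 rose and 4371 fell with upper-quartile scaling. The share of the list that rose was then near that of all tested genes. SKP2, the ligase subunit that recognises p27, p21 and p57, measured 57.0, 23.7, 57.2, 50.02 and 51.6 TPM in NC-1 to NC-5 and 6.90, 4.43, 4.60, 6.32 and 6.70 TPM in LY-1 to LY-5 (log2 fold change -2.80 ± 0.23, adjusted p = 7.01e-07). Its cofactor CKS1B rose (0.42 ± 0.10), as did the D cyclin ligase subunits FBXO4 (0.82 ± 0.12), FBXO31 (0.77 ± 0.18) and AMBRA1 (0.37 ± 0.12). The CKS1B call was lost in 2 and the AMBRA1 call in 3 of 23 alternatives.

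All 3 subunits of the CDK-activating kinase, which phosphorylates CDK4 and CDK6, rose, where 39.8% of all tested genes rose and 24.9% fell. CCNH went from 54.3 ± 2.69 to 231 ± 19.0 TPM, MNAT1 from 33.9 ± 8.06 to 89.3 ± 11.2 TPM and CDK7 from 61.0 ± 6.67 to 93.1 ± 14.9 TPM. The CDK4 chaperones CDC37 and HSP90AB1 did not pass as deposited, and HSP90AB1 was called lower in 7 of 23 alternatives.

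Of 16 tested transcription regulators of the D cyclin and CIP/KIP genes 8 rose, 4 fell and 4 missed the threshold, with a median of 0.55 on the log2 scale; over all tested genes 39.8% rose and 24.9% fell, so these shares are near the background. FOSL1 (2.60 ± 0.24) and JUN (2.40 ± 0.19) of AP-1, and KLF4 (2.21 ± 0.13), an activator of CDKN1A, rose. MYC rose (1.48 ± 0.35), with LY-2 at 402 TPM against 88.7 to 121 TPM in the other LY libraries, and without LY-2 its log2 fold change was 1.08. FOXO3, an activator of CDKN1B, rose (1.08 ± 0.089), whereas FOXO4 of the same list fell (-0.83 ± 0.11). FOS (-1.63 ± 0.42) and SP1 (-0.48 ± 0.13) fell too.

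**Figure D4:**
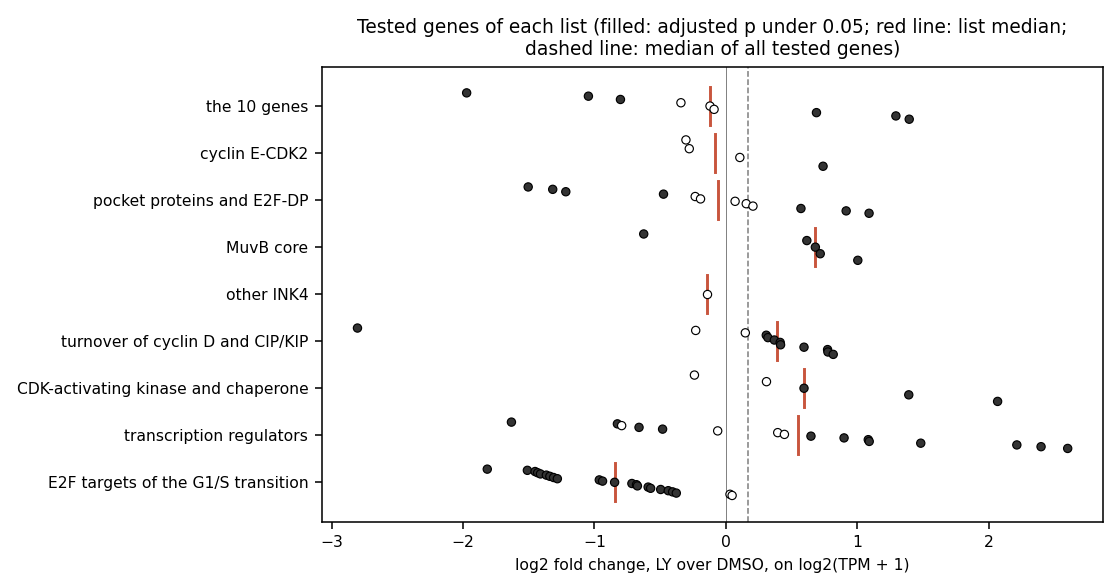
Log2 fold change, LY over DMSO, of the tested genes in each list, on the log2(TPM + 1) scale; filled points have an adjusted p under 0.05, red lines are list medians and the dashed line is the median of all tested genes (0.17). The E2F targets lie almost wholly below 0 (median -0.85), and the member genes lie on both sides (from -1.97 to 1.40).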

How the data were processed

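RNA sequencing libraries of PANC-1 cells (5 LY, 5 DMSO) were deposited as 1 table of gene TPM, which the authors computed per transcript length and library total; each column sums to 999932 to 999967. The submitters' processing notes list the builds GRCm38, mm10 and hg38 without roles; the aligner, the counter and its annotation are not named there or in the labels. The design text gives 4 samples a group, whereas the labels list 5. Columns NC-1 to NC-5 match no title and were taken as the DMSO group as a whole. Ensembl IDs were matched to symbols (20148 of 20263, 76 more from GENCODE 29, 39 unnamed). Positions are GENCODE 29 on hg38. TPM keeps no read totals, so depth is unknown and intervals for counting error were not computed.

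Genes reaching 1 TPM in 5 or more of 10 libraries (11663 genes) were fitted with limma 3.58.1 in R 4.3.3: log2(TPM + 1), group as the only term, mean-variance trend, Benjamini-Hochberg adjustment over all fitted genes, threshold 0.05. The fit was also run on simulated data with independent noise and few changed genes. These data differ from that setting, so the run does not check the calls given here. Levels are given per library, or as mean ± SD over 5 libraries. Shares within gene groups carry no test. Alternatives were pseudocounts of 0.1 and 0.5, no filter, a minimum TPM of 5, scaling by upper quartile, by quantiles or by median ratios, removal of mitochondrial genes alone or with the 50 most abundant, limma without trend or with robust moderation, an exact Wilcoxon test, each library left out, and NC-2 left out with median-ratio scaling. The members and lists were chosen with earlier results of these data known. Named genes are all members, any gene of the pathway lists, of the E2F target list the 3 largest changes each way, and the 5 genes most like the most changed member. A planned comparison of protein sequences was not run. Of the lists, 1 item and 1 further list are not reported here.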

Additional observations from a re-analysis of the deposited data

Results flagged for a closer look

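In groups of 5 libraries a value was marked where its gap to the nearest other, divided by the range, exceeded Dixon's 0.71. This held for 17 of 178 groups examined over the members, shares and named genes, and chance marks about 1 in 20. Control NC-2 gave 11 of the marks. It was low in CCND1 (79.8 TPM, other controls 98.0 to 101), in the INK4 sum (33.9 TPM, others 57.2 to 58.9), SKP2 (23.7), E2F3 (6.64), CKS1B (228), AMBRA1 (21.3), DDB1 (181), CDC37 (260), HSP90AB1 (1311) and FDXR (27.5 TPM), and high in LIN9 (18.2 TPM). NC-2 also held 37.5% mitochondrial TPM, whose part in these values was not tested.

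LY-2 was high in MYC (402 TPM, other LY libraries 88.7 to 121), RBBP4 (67.6, others 24.5 to 26.9) and CDK7 (119, others 80.2 to 90.1 TPM). LY-1 was high in CDK2 (46.2 TPM) and CCNG1 (68.9) and low in FOXO4 (1.09 TPM).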

How the results depend on the processing

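RB1, CDKN1A, CDK6, CDKN2C, CCND1 and CDKN1C kept their direction and call in every alternative in which they were tested (23 each, 22 for CDK6 and CDKN1C, which a minimum TPM of 5 removed). Counts were 2 up and 2 down at that minimum, and 4 up without a filter, where CCND2 was tested too. Members called lower numbered 3 as deposited, 5 with median-ratio scaling, 6 with quantile, 6 with upper-quartile scaling, 5 when mitochondrial genes and the 50 most abundant were taken out, and 5 when median-ratio scaling was run without NC-2; the added calls were CCND3, CDKN1B and CDK4. Falls also became more frequent in the background. Of 11663 tested genes, 4371 fell under upper-quartile scaling, 3863 under median ratios and 3694 under quantiles, against 2899 before any rescaling. Leaving out NC-2 under median ratios gave 4147 falls. Removal of the mitochondrial and the 50 most abundant genes gave 4189 of 11973. Whether the added member calls go beyond this shift was not tested. The size of low genes depended on the pseudocount, with CDK6 at 1.13 and CDKN1C at -1.54 for 0.1. Leaving out 1 library moved the difference in CDKN1A share between 21.4 and 27.9 points, in CCND1 share between -11.9 and -8.20 points and in CDK6 share between 0.958 and 1.22 points. Of 58 named genes (LTO1 and genes of the pathway lists) 17 changed call in some alternative. RRM1 turned to -0.25 with quantile (adjusted p = 0.0185) and -0.24 with upper-quartile scaling (adjusted p = 0.0218). No paired analysis was possible because the control columns carry no number that ties them to numbered samples. Unknown depth limits what can be said of CCND2, CDKN1C and CDK6.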

Other observations

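Within the controls, RB1 was highest in NC-1 (30.2 TPM) and lowest in NC-4 and NC-5 (14.9 and 14.8 TPM), and MDM2 took the same order from NC-1 to NC-5 (13.3, 11.5, 8.03, 6.69 and 4.65 TPM). CDKN1A was instead highest in NC-4 and NC-5 (18.5 and 20.1 TPM) and lowest in NC-3 (6.71 TPM). KLF6, a transcription factor known to activate CDKN1A, was also highest in NC-4 and NC-5 (230.5 and 228 TPM) and lowest in NC-3 (108 TPM). FOS, JUN, EGR1 and KLF4 were highest in NC-4 and NC-5 too, but lowest in NC-1 or NC-2. A link between KLF6 and CDKN1A was not tested. With 5 controls no correlation was computed, and these genes were chosen after their values were seen.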
